A study of Mus musculus with 6 samples.

Results

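The endothelial cells that line brain capillaries, the pericytes wrapped around them and the smooth muscle of the larger vessels were followed through 38 genes, picked by name for their known roles. The genes fall into 8 roles, from tight junctions and barrier transporters to angiogenic signals, leukocyte adhesion and mural cell markers. Of the 38, 35 were among the 15441 genes with a value in at least 1 library. Brain endothelial cells are sealed to each other by tight junctions, carry few vesicles and move nutrients and drugs through dedicated transporters, and together with pericytes and astrocyte endfeet this makes the blood-brain barrier. After a stroke the barrier leaks, endothelial cells put out adhesion molecules that catch leukocytes, and angiogenic signals such as VEGF and the angiopoietins act on the surviving vessels.

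Focal ischemia was produced in the sensorimotor cortex of male C57/BL6J mice aged 6 to 8 weeks by photothrombosis, in which light through the skull activates injected Rose Bengal dye and clots form in the illuminated vessels. The whole ipsilateral cortex was taken at day 1, 3, 7, 14 or 28 post-stroke, and the sham-operated control mice, which were not illuminated, were taken at day 7 after the operation. RNA of 3 mice was pooled for each group and sequenced as 1 strand-specific, poly(A)-selected, paired-end library, so the data hold 6 libraries, no replicates and no spread between animals, and no test was possible. Sequencing was stated to average 33.6 M reads of 150 bases for each sample, and how deep each library went is not known, which leaves no basis for an interval or detection limit.

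The authors deposited FPKM (fragments scaled to transcript length and library size) for each transcript start, transcript end and splicing event, and listed no event at 0. The level of a gene here is the largest of its summed starts, its summed ends and any single event. Ratios are log2((FPKM + 0.1)/(sham FPKM + 0.1)), a gene was compared when either library held it at 1 FPKM or more, and a gene was counted as higher or lower past a log2 ratio of 1 in size, which is 2-fold. A gene without any listed event entered the counts and medians as 0 but is given no ratio of its own. Of the members, 29 were listed in all 6 libraries, and 34 reached 1 FPKM in at least 1 library. Esam, Egfl7 and Sele were listed under their own identifier in no library. In bulk tissue, fewer vascular cells and less RNA per vascular cell cannot be told apart.

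Day 3 was the time point at which the vascular genes stood highest. At day 3, 10 of the 31 members compared were at least 2-fold higher than in sham and 0 were lower, where 8.54% of all 12052 genes compared were higher and 2.53% were lower. The 10 were the endothelial genes Pecam1, Cdh5, Kdr, Eng, Nos3, Plvap and Vwf, the adhesion molecule Icam1, the pericyte gene Abcc9, which was not listed in sham, and the smooth muscle gene Tagln. Kdr, Nos3 and Icam1 lay below 1 FPKM in sham, at 0.958, 0.919 and 0.905. Like Abcc9, they were compared only through the day 3 library in which they were high, so their passing the filter is no independent support. With a pseudocount of 1 the count was 4 of 31, beside 622 of 12052 of all genes, as Pecam1, Cdh5, Kdr, Eng, Nos3 and Vwf then lay below 2-fold, and with a filter of 5 FPKM it was 3 of 15, beside 336 of 8070. The median log2 ratio of the members was 0.67 at day 3, against 0.03 for all genes compared, and 27 of the 31 members lay above sham, or 87.1%, against 53.4% of all genes. Among the 29 members listed in all 6 libraries, 17 had their highest level at day 3, or 58.6%, while 15.9% of the 11565 genes listed in all libraries at 1 FPKM or more did. With the day 14 library left out the number was 18, beside 20.1% of all genes, and with the day 1 library left out it was 18, beside 18.2%.

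The members stood closer to sham on the other days. At day 1, 4 of 30 members compared were higher (Cldn5, Plvap, Icam1 and Tagln, with Cldn5 not listed in sham) and 3 were lower (Slco1a4, Tek and Tie1), beside 5.11% and 4.48% of all genes. With a pseudocount of 1, 2 were higher and 1 was lower, beside 376 and 298 of 11790 of all genes. Plvap, Icam1, Tek and Tie1 then lay within 2-fold of sham. The median of the members was -0.05 at day 1, against 0.01 for all genes. At day 7, 2 of 31 members were higher (Angpt2 and Icam1) and 0 were lower, beside 8.53% and 2.12% of all genes, with a median of 0.10 against 0.03. The count of higher members at day 7 was thus no larger than the share of all genes would give.

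At day 14, 2 of 30 members were higher (Nos3 and Icam1) and 1 was lower (Flt1, which was not listed at day 14), beside 8.97% and 6.92% of all genes. By summed starts alone, 1 of 27 was higher and 8 were lower, beside 945 and 1911 of 11277 of all genes. By summed ends alone, 2 of 28 were higher and 0 were lower, beside 1111 and 629 of 9417. The median of the members was 0.35 at day 14, where that of all genes was 0.10. At day 28, 2 of 30 members were higher (Plvap and Myh11) and 0 were lower, beside 3.68% and 2.79% of all genes, and the median was -0.06 against 0.03. Icam1 at days 1, 7 and 14, Angpt2 at day 7, Nos3 at day 14 and Myh11 at day 28 lay below 1 FPKM in sham. They entered the counts, as Cldn5 did at day 1, only through the library in which they were high. All 5 comparisons share the single sham library, so a high or low level of a gene in sham enters each of them.

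**Figure D1:**
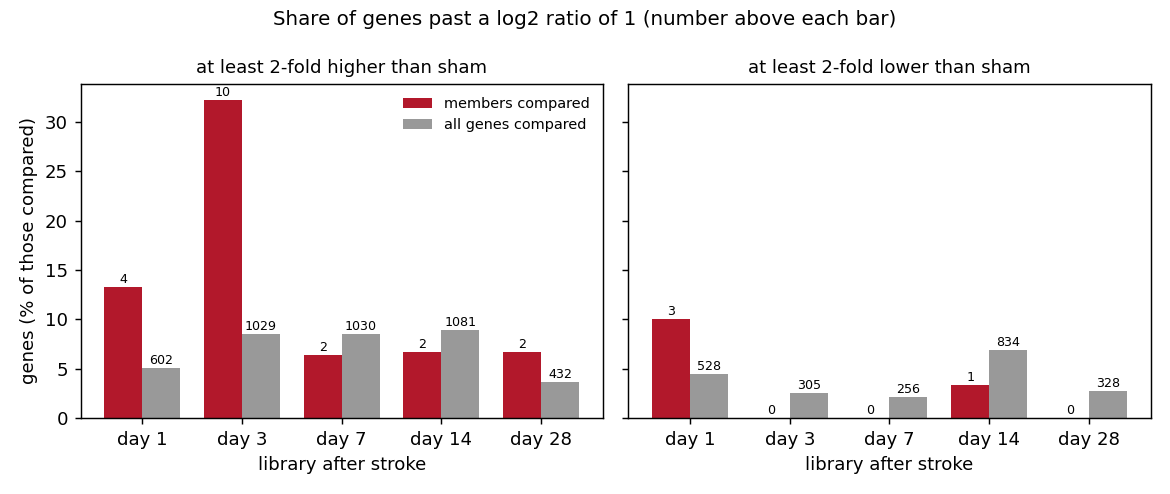
Share of the members compared (red) and of all genes compared (grey) that were at least 2-fold higher (left) or lower (right) than sham in each library after stroke, in percent of the genes compared, with the number of genes above each bar. At day 3, 10 members and 1029 of all genes were higher; on days 7 and 14 the members' share of higher genes was below that of all genes.

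**Figure D2:**
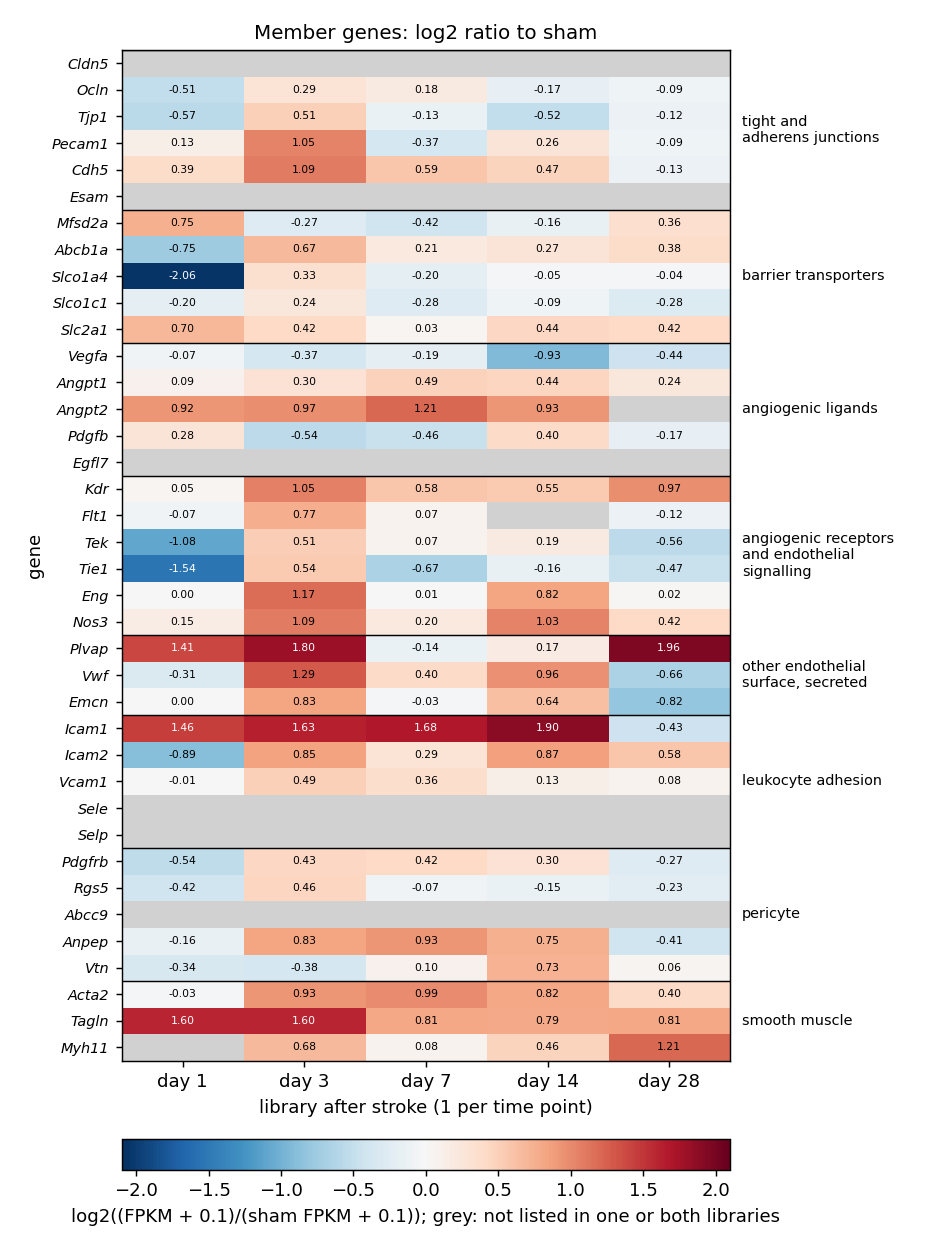
Log2 ratio to sham of the members (rows, grouped by role) in the 5 libraries after stroke (columns), with grey where a gene was not listed in one or both libraries. Slco1a4 at day 1 (-2.06) and Plvap at day 28 (1.96) had the ratios of the largest size in each direction.

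The junction genes Cdh5, Pecam1, Ocln and Tjp1 were each highest at day 3 and below sham at day 28. Cdh5, VE-cadherin of the endothelial adherens junction (ENSMUSG00000031871, chr8:104101625-104144511), had an FPKM of 2.16 in sham, then 2.85, 4.71, 3.28, 3.02 and 1.96 on days 1, 3, 7, 14 and 28. Pecam1, the endothelial adhesion molecule CD31 (chr11:106654217-106750628), stood at 3.33 in sham, then 3.64, 7.00, 2.55, 4.02 and 3.13 on days 1, 3, 7, 14 and 28. At day 3 their log2 ratios were 1.09 and 1.05, and at day 7 Cdh5 was above sham (0.59) and Pecam1 below it (-0.37). Ocln, which encodes the tight junction protein occludin, had 1.89 in sham, then 1.29, 2.34, 2.16, 1.67 and 1.77 on days 1, 3, 7, 14 and 28, and no library differed from sham by 2-fold.

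Tjp1, which encodes the cytoplasmic scaffold ZO-1 of tight junctions (ENSMUSG00000030516, chr7:65296165-65527781), had an FPKM of 16.5 in sham, then 11.1, 23.4, 14.999, 11.5 and 15.2 on days 1, 3, 7, 14 and 28. Its level was lowest at day 1 and day 14. By its summed starts alone Tjp1 was 7.14 at day 14 against 16.5 in sham, more than 2-fold lower. By its ends it was 11.5 against 13.5. Tjp1 is known for an alternative exon that encodes the alpha domain of ZO-1. That exon, of 240 bases, was included in transcripts with 3.02 in sham, then 2.78, 2.03, 1.44 and 1.41 on days 1, 3, 7 and 28 (none listed on day 14) and skipped in transcripts with 10.5 in sham, then 6.57, 15.6, 12.2, 8.18 and 11.8 on days 1, 3, 7, 14 and 28. The included form therefore made up 22.4% of both in sham and 29.8% on day 1, but 11.6%, 10.6% and 10.7% on days 3, 7 and 28. The exon was chosen after its share was seen to be lower on days 3, 7 and 28, and at day 14 its included form was not listed. A further event of Tjp1, at chr7:65299730-65299813, had the same FPKM as the included form in each other library. At day 14 that event was listed at 2.08 FPKM, so the share of the included form cannot be read there. The 240-base exon was copied from a GENCODE M21 transcript, minus strand of GRCm38, chr7:65314093-65314332.
Tjp1 240-base exon: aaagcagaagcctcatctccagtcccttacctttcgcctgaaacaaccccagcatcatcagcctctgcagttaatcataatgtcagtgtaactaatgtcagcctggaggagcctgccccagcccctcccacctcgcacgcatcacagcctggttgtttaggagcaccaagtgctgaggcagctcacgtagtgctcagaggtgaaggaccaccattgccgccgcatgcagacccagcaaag

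The starts of Tjp1 also differed between libraries. The main start, at chr7:65370810-65371239, carried 71.1% of the summed starts in sham, then 75.9%, 75.0%, 90.8% and 86.7% on days 1, 3, 7 and 28, and at day 14 it was the single start listed. An upstream annotated start at chr7:65527564-65527781 had 28.9% in sham and 0.827% at day 7. A further start that lies 10874 bases from the nearest annotated one was listed at days 3 and 7 with 1.91 and 1.25 FPKM.

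The cytoplasmic tail of Pecam1 is also known to be spliced in alternative forms, and 2 of its exons, of 57 and 23 bases, were each present or absent. Transcripts with both exons had 1.42 in sham, then 0.752, 2.53, 0.602, 0.419 and 1.02 on days 1, 3, 7, 14 and 28. Those with the 57-base exon and without the 23-base exon had 1.19 in sham, then 1.17, 2.85, 1.87, 2.29 and 0.887 on days 1, 3, 7, 14 and 28. The form with both exons was the leading one in sham, with 42.9% of the forms, and the form without the 23-base exon led on each day from day 1 to day 14, with 42.6%, 40.9%, 75.7% and 57.4%. At day 28 the form that lacks both exons was the leading one, at 38.9%. No form of Pecam1 reached 3 FPKM, and the number of fragments behind these shares is unknown. The exons, which distinguish the forms, were copied from GENCODE M21 transcripts, minus strand of GRCm38, chr11:106671742-106671798 and chr11:106662002-106662024.
Pecam1 57-base exon: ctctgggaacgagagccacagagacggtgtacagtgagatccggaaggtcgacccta
Pecam1 23-base exon: atctcatggaaaacagatactct

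Cldn5, the main claudin of the brain endothelial tight junction (chr16:18776847-18778262), was listed at day 1 only, with 1.03 FPKM at both its start and its end, and no level can be given for the other libraries. For Esam, an endothelial adhesion molecule of the tight junction (chr9:37528078-37538319), the events within its span carried the identifier of the neighbouring gene Vsig2. The start at the first base of Esam had an FPKM of 3.75 in sham, then 3.26, 4.45, 3.57, 3.74 and 2.83 on days 1, 3, 7, 14 and 28, which was highest at day 3 as for Cdh5 and Pecam1.

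The transporters of the barrier differed in direction at day 1: Slc2a1 and Mfsd2a were above sham, while Slco1a4 and Abcb1a were below. Slc2a1, the glucose transporter GLUT1 that feeds the brain across the endothelium (ENSMUSG00000028645, chr4:119108711-119137983), had an FPKM of 15.6 in sham, then 25.4, 20.9, 15.9, 21.1 and 20.9 on days 1, 3, 7, 14 and 28. Mfsd2a, which carries lipids that hold endothelial vesicle traffic low (chr4:122946850-122961188), had 9.005 in sham, then 15.2, 7.47, 6.68, 8.04 and 11.6 on days 1, 3, 7, 14 and 28. Each had its highest level at day 1, with log2 ratios of 0.70 and 0.75, neither of them past 2-fold. By ends alone Mfsd2a was past it, at 1.16, and 5 of 28 members were then higher at day 1, beside 681 of 9178 of all genes.

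Slco1a4, an organic anion transporter of brain capillaries (ENSMUSG00000030237, chr6:141805440-141856199), had 11.5 in sham, then 2.68, 14.5, 10.02, 11.1 and 11.2 on days 1, 3, 7, 14 and 28. At -2.06, its ratio at day 1 was the lowest of any member listed in both libraries. The same order held for its starts, with 11.5 in sham and 2.25 at day 1, and for its ends, with 8.90 and 2.68. Its starts and ends diverged on later days. At day 3 the starts summed to 14.5 and the ends to 5.70, at day 7 to 10.02 and 3.24, and at day 14 to 3.10 and 11.1. At day 7 both were below their level in sham, but at days 3 and 14 the direction of Slco1a4 depends on which is taken. Its day 3 log2 ratio was 0.33 by the gene value and -0.64 by ends. At days 3 and 7, but in no other library, transcripts that retain an intron of Slco1a4 were listed, with 5.70 and 2.83 FPKM.

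Abcb1a, the drug efflux pump P-glycoprotein (chr5:8660077-8748575), had 4.18 in sham, then 2.44, 6.72, 4.84, 5.07 and 5.48 on days 1, 3, 7, 14 and 28. Like Slco1a4, it was lowest at day 1, and it was highest at day 3. By its summed starts alone Abcb1a was lowest at day 14, at 1.87 against 4.18 in sham, more than 2-fold lower. Its direction at day 14 thus depends on the part read. Its leading start lay 92961 bases upstream of the nearest annotated start and carried 83.9% of the summed starts in sham and 84.1% at day 28; it carried 43.1% at day 1 and was not listed at day 14, where an annotated start led with 64.9%. Slco1c1, which brings thyroxine into the brain (chr6:141524368-141570177), had 15.6 in sham, then 13.5, 18.4, 12.8, 14.7 and 12.8 on days 1, 3, 7, 14 and 28, all within 1.5-fold of sham. At day 1 its leading start lay 344 bases upstream of the annotated one, at chr6:141524024-141524064, with 80.2% of the summed starts, and this start was listed in no other library.

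The promoters of Slc2a1 and Mfsd2a were chosen after the levels were seen, since both genes stood highest at day 1 and both promoters hold the core of the hypoxia response element, ACGTG. Capitals mark each match in the 250 bases before the RefSeq start (GRCm38.p6): Slc2a1, plus strand, chr4:119108495-119108744, with 1 match, and Mfsd2a, minus strand, chr4:122961189-122961438, with 2 matches. ACGTG was found on either strand in 19.6% of the 32851 promoter windows of the RefSeq table, each from 250 bases before to 50 bases after a start. It was found in 5 of the 28 windows of members, which belong to 24 genes, and besides Slc2a1 and Mfsd2a these were windows of Slco1c1, Tjp1 and Vegfa. A match is a description of these letters and not a binding site, and the share among members was near that of all promoters.
Slc2a1 promoter: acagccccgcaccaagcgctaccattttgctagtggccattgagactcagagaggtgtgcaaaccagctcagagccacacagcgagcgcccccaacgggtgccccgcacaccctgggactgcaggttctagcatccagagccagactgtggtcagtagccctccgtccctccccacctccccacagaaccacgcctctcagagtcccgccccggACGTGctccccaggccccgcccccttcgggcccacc
Mfsd2a promoter: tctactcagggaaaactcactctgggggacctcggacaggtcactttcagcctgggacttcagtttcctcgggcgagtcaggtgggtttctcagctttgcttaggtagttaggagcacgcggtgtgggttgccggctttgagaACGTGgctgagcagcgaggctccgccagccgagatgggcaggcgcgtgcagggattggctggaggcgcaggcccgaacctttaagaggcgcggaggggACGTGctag

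**Figure D3:**
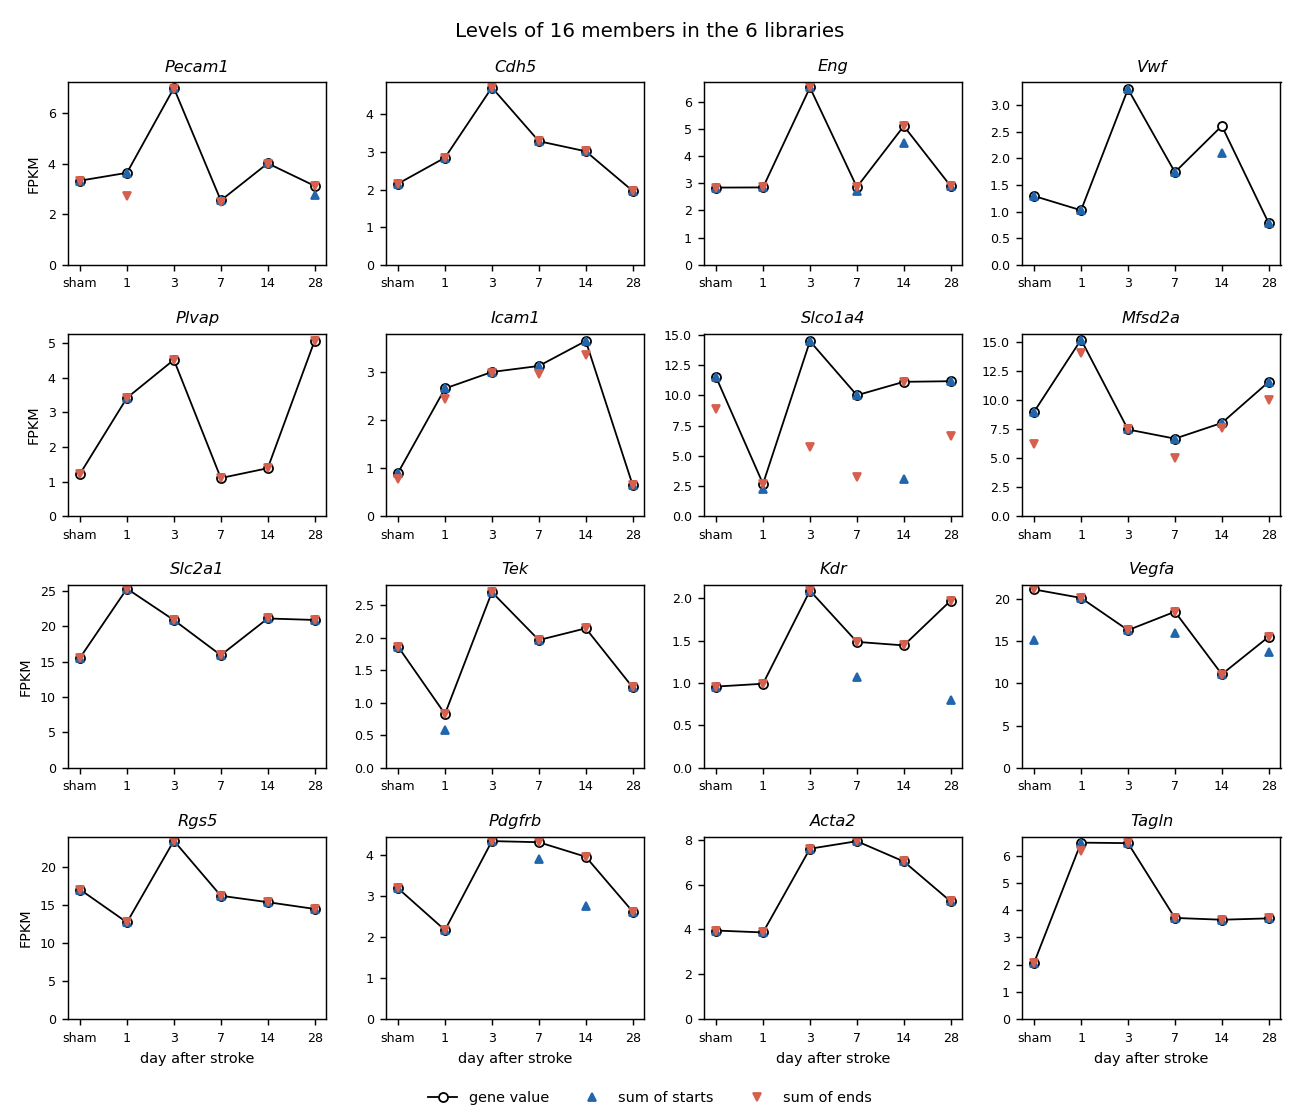
FPKM (vertical axis, from 0) of 16 members in sham and at each day after stroke (horizontal axis), with open circles for the gene value, upward triangles for the summed starts and downward triangles for the summed ends. Pecam1, Cdh5, Eng, Vwf, Tek, Kdr and Rgs5 were highest at day 3, Slco1a4 stood at 2.68 at day 1, and Plvap was high at days 1, 3 and 28.

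Vegfa and its splice forms stood apart from the endothelial genes. Vegfa, the main growth and permeability factor of endothelial cells (ENSMUSG00000023951, chr17:46016993-46032369), had an FPKM of 21.2 in sham, then 20.2, 16.3, 18.5, 11.1 and 15.6 on days 1, 3, 7, 14 and 28. Its level was highest in sham and lowest at day 14, where the log2 ratio was -0.93. That level includes starts on the opposite strand, and with events inside the annotated span only the ratio was -1.01, past 2-fold. By its starts alone it was 15.1 in sham and 20.2 at day 1, so that sham was no longer the highest.

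Vegfa transcripts differ in 2 exons, of 72 and 132 bases, that encode the stretches which bind heparin and neuropilin: the form that lacks both diffuses freely, the form that holds only the 132-base exon binds in part, and the form with both stays at the cell surface and matrix. The form without both exons had 14.9 in sham, then 11.96, 7.56, 13.3, 0.734 and 10.2 on days 1, 3, 7, 14 and 28. The form with only the 132-base exon had 5.15 in sham, then 5.06, 8.49, 4.604, 9.44 and 4.82 on days 1, 3, 7, 14 and 28. The former led in sham with 73.7% and at days 1, 7 and 28 with 59.4%, 73.6% and 67.0%, whereas the latter led at day 3 with 52.0% and at day 14 with 90.7%. Transcripts with both exons had 0.175 in sham, then 3.11, 0.263, 0.161, 0.233 and 0.180 on days 1, 3, 7, 14 and 28, and their share was 15.4% at day 1 and at most 2.24% in each other library. In sham the event that joins the 132-base to the 72-base exon had 1.07 FPKM, more than the form counted here. Day 14 is 1 pool, and the number of fragments behind these forms is unknown. It was also the library in which the listing of transcript parts differed most. An event of Vegfa that retains an intron, listed in each other library, was not listed there. As listed, the lower level of Vegfa at day 14 lay in the form that lacks both exons. The form with only the 132-base exon had its highest level there. The forms differ by these exons, which were copied from GENCODE M21 transcripts, minus strand of GRCm38, chr17:46022277-46022348 and chr17:46020991-46021122.
Vegfa 72-base exon: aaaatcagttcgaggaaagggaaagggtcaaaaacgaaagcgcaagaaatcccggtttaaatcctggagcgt
Vegfa 132-base exon: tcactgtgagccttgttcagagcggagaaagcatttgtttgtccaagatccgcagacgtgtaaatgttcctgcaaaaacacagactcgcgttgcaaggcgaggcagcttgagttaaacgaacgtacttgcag

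The starts of Vegfa were steadier. The start at chr17:46031291-46031815 carried 89.9% of the summed starts in sham and between 85.3% (day 3) and 96.3% (day 7) after stroke. A downstream start at chr17:46024444-46024864 had 12.7% at day 1 and at most 2.07% elsewhere. Day 1 was also the library in which the form with both exons stood highest.

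**Figure D4:**
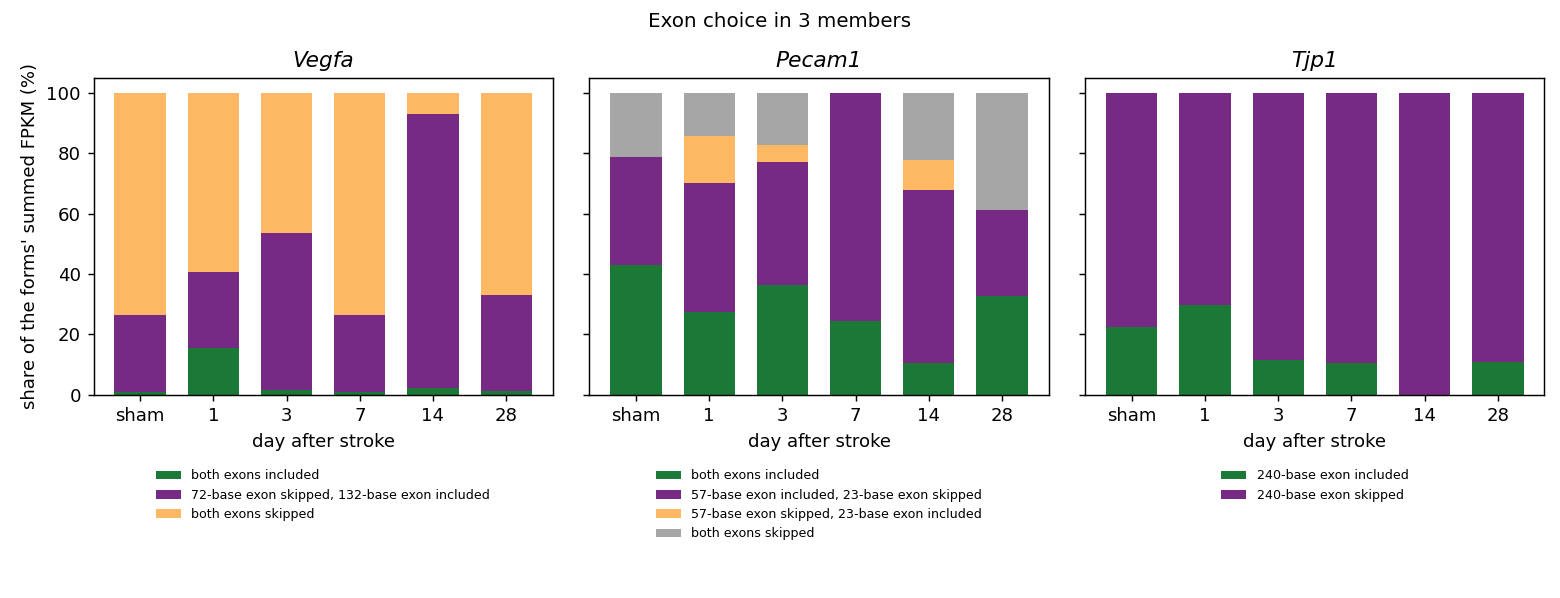
Share of the splice forms of Vegfa, Pecam1 and Tjp1 (stacked bars, in percent of the forms' summed FPKM) in sham and at each day after stroke, with the forms named by the exons they include or skip. In Vegfa the form that skips only the 72-base exon made up 90.7% at day 14 and 25.4% in sham. At day 14 the included form of Tjp1 was not listed, so that bar holds the skipped form only and its share cannot be read.

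Angpt2, the angiopoietin that loosens vessels by opposing Tie2 signalling (chr8:18690263-18741562), had an FPKM of 0.443 in sham, then 0.927, 0.967, 1.16 and 0.936 on days 1, 3, 7 and 14 (none listed on day 28). It was above sham in each library from day 1 to day 14, with its highest log2 ratio, 1.21, at day 7. Only at day 7 did Angpt2 reach 1 FPKM and enter the count, and with a pseudocount of 1 that ratio was 0.58. Angpt1, the stabilizing angiopoietin, had 1.60 in sham, then 1.70, 2.00, 2.28, 2.21 and 1.91 on days 1, 3, 7, 14 and 28, with log2 ratios between 0.09 and 0.49. Pdgfb, with which endothelial cells recruit pericytes, had 6.32 in sham, then 7.67, 4.30, 4.57, 8.37 and 5.62 on days 1, 3, 7, 14 and 28, below sham at days 3, 7 and 28 and above it at days 1 and 14. Egfl7, a secreted endothelial factor (chr2:26580014-26593120), had no event of its own; events within its span carried the identifier of the overlapping gene Gm20532, and the largest of them had 9.53 in sham, then 8.57, 8.81, 8.06, 15.1 and 9.42 on days 1, 3, 7, 14 and 28, highest at day 14.

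All 6 receptor and signalling genes were above sham at day 3, with a median log2 ratio of 0.91, and Kdr, Eng and Nos3 passed 2-fold. Eng, endoglin, a co-receptor for TGF-beta and BMP ligands (ENSMUSG00000026814, chr2:32646595-32682669), had an FPKM of 2.84 in sham, then 2.85, 6.53, 2.86, 5.11 and 2.89 on days 1, 3, 7, 14 and 28. It stood out at days 3 and 14 and had log2 ratios of 0.00, 0.01 and 0.02 on days 1, 7 and 28. Nos3, the endothelial nitric oxide synthase, had 0.919 in sham, then 1.03, 2.08, 1.07, 1.99 and 1.26 on days 1, 3, 7, 14 and 28 and likewise was highest at days 3 and 14, with log2 ratios of 1.09 and 1.03. Both calls of Nos3 depend on the part read: by its ends the day 3 ratio was 0.80, and at day 14 its starts summed to 0.415 against 0.919 in sham.

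Kdr, the main signalling receptor of VEGF (ENSMUSG00000062960, chr5:75932827-75978458), had 0.958 in sham, then 0.991, 2.09, 1.49, 1.44 and 1.97 on days 1, 3, 7, 14 and 28. Its ratio was 1.05 at day 3 and 0.97 at day 28, the latter for the value from its ends; its starts summed to 0.796 at day 28 and 0.958 in sham, so the higher level at day 28 was not seen there. At day 28 an early annotated end at chr5:75957365-75959458 carried 35.7% of the summed ends, against 6.24% in sham and 0.863% at day 3, the other libraries in which it was listed.

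Flt1, the VEGF receptor that also exists as a soluble decoy (chr5:147561604-147726011), was listed by its starts only, with 2.84 in sham, then 2.70, 4.90, 2.99 and 2.61 on days 1, 3, 7 and 28 (none listed on day 14). Since no end of Flt1 was listed, its full-length and soluble forms could not be read apart. Its annotated start at chr5:147725671-147726011 was the single start in each library that listed the gene, except at day 1, where a start within the gene, 10639 bases from the nearest annotated one, carried 42.4%.

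Tek (Tie2), the receptor of the angiopoietins, and its partner Tie1 were the receptors that were lower at day 1. Tek (chr4:94739289-94874976) had 1.86 in sham, then 0.827, 2.70, 1.96, 2.15 and 1.24 on days 1, 3, 7, 14 and 28, and Tie1 (chr4:118471191-118490061) had 1.56 in sham, then 0.474, 2.32, 0.945, 1.39 and 1.10 on days 1, 3, 7, 14 and 28. Their log2 ratios at day 1 were -1.08 and -1.54, and both were highest at day 3, at 0.51 and 0.54. With a pseudocount of 1 the day 1 ratios were -0.65 and -0.80, neither past 2-fold. By its starts alone Tie1 was also more than 2-fold lower at day 14, at 0.464 against 1.56 in sham, and no start of Tek was listed there. The ligand Angpt2 was above sham (0.92 in log2 ratio) in the day 1 library, in which its receptor Tek was lowest. However, Angpt2 lay below 1 FPKM in both libraries, was not past 2-fold and is not in the day 1 count.

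The promoter of Kdr, minus strand, chr5:75978456-75978705, is shown with that of the adhesion gene Icam1, plus strand, chr9:21015690-21015939, since both hold a core motif of the ETS factors, CCGGAA on either strand, marked in capitals in the 250 bases before the RefSeq start (GRCm38.p6). Kdr had 1 match and Icam1 had 3. The motif was found in 14.9% of all 32851 windows and in 3 of the 28 windows of members, the third being a window of Ocln. The NF-kB motif was found in 4.51% of all windows and in 3 of the 28 windows of members (10.7%), those of Kdr, Flt1 and Vegfa. The CArG box was found in 1.63% of all windows and in 0 of those of members. ETS factors are known to direct endothelial transcription, but the shares among members were near those of all promoters or rested on few windows.
Kdr promoter: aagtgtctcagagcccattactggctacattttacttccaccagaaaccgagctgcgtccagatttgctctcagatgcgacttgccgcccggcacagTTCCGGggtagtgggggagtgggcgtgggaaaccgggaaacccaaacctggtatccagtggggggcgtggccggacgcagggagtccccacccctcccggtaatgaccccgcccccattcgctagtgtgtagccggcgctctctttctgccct
Icam1 promoter: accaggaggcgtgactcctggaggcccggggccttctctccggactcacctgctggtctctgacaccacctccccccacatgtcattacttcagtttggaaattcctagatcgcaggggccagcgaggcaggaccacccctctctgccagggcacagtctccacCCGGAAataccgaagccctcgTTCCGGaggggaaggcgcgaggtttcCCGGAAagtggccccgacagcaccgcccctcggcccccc

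Plvap, which forms the diaphragms of fenestrated and leaky endothelium and is nearly absent from vessels with a mature barrier (ENSMUSG00000034845, chr8:71497765-71511752), had an FPKM of 1.22 in sham, then 3.42, 4.52, 1.10, 1.39 and 5.07 on days 1, 3, 7, 14 and 28. It was past 2-fold at day 1 (1.41), day 3 (1.80) and day 28 (1.96), and within 1.5-fold of sham at days 7 and 14. The start of Plvap was listed at day 1 only, and its level in the other libraries is that of its end. Fenestrated vessels also lie in the choroid plexus, a tissue that a cortical dissection can carry along. The 4 choroid plexus markers, all listed in every library, summed to an FPKM of 289 in sham, then 467, 184, 348, 298 and 563 on days 1, 3, 7, 14 and 28. Nearly all of each sum was Ttr, with 279 in sham and 549 at day 28. The sum was high, as Plvap was, at days 1 and 28, but it was lowest at day 3, when Plvap was also high. At day 7 the sum was above sham, while Plvap was below it. The part of choroid plexus in the level of Plvap was not tested.

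Vwf, the clotting factor stored in endothelial cells (chr6:125546774-125686679), had 1.29 in sham, then 1.02, 3.30, 1.74, 2.61 and 0.779 on days 1, 3, 7, 14 and 28, and Emcn, the endothelial sialomucin of capillaries and veins, had 1.18 in sham, then 1.18, 2.17, 1.15, 1.88 and 0.624 on days 1, 3, 7, 14 and 28. Both had their highest levels at days 3 and 14 and their lowest at day 28, with log2 ratios at day 3 of 1.29 and 0.83 and at day 28 of -0.66 and -0.82. For Vwf an annotated start at chr6:125552948-125553199 led in each library except day 14, where a start at chr6:125646339-125646396, inside the gene, carried 64.4%, against at most 4.55% in the others.

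Icam1, with which activated endothelium, glia and leukocytes bind integrins (ENSMUSG00000037405, chr9:21015985-21028817), was the member with the longest stretch of days past 2-fold. Its FPKM was 0.905 in sham, then 2.66, 3.00, 3.13, 3.65 and 0.647 on days 1, 3, 7, 14 and 28. The log2 ratios were 1.46, 1.63, 1.68 and 1.90 from day 1 to day 14, and at day 28 the gene was below sham. By starts and by ends alike, Icam1 was highest at day 14 and lowest at day 28. Because microglia and macrophages also express Icam1, their markers are given here: of 7 genes on that list, 5 were listed in sham, Tmem119 and Cx3cr1 were not, and the list summed to an FPKM of 51.6 in sham, then 41.1, 104, 110.3, 91.5 and 49.9 on days 1, 3, 7, 14 and 28, with Csf1r the most abundant in each library. The sums were above sham at days 3, 7 and 14. At day 1 the sum was below sham, with P2ry12 at 7.01 FPKM against 18.0 in sham, while 3 of the 5 markers compared lay above it and their median log2 ratio was 0.16. The part of these cells in the level of Icam1 was not tested.

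Icam2, present on resting endothelium, had 1.01 in sham, then 0.499, 1.90, 1.26, 1.93 and 1.57 on days 1, 3, 7, 14 and 28, lowest at day 1. Vcam1, a further integrin ligand (chr3:116109949-116129688), had 9.12 in sham, then 9.06, 12.9, 11.8, 9.97 and 9.63 on days 1, 3, 7, 14 and 28, highest at day 3 (0.49 in log2 ratio) and within 1.5-fold of sham in each library. The selectins, which start the rolling of leukocytes, were scarcely seen. Selp was listed at days 1, 3 and 7, at 0.570, 0.0702 and 0.0589 FPKM, and Sele had no event in any library.

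At day 3 the pericyte members had a median log2 ratio of 0.46, nearer to sham than the receptors. Pdgfrb, the receptor for Pdgfb on pericytes and fibroblasts, had 3.18 in sham, then 2.16, 4.33, 4.30, 3.95 and 2.61 on days 1, 3, 7, 14 and 28, and Rgs5, a regulator of G-protein signalling that marks brain pericytes (chr1:169655501-169695813), had 17.0 in sham, then 12.7, 23.4, 16.2, 15.3 and 14.4 on days 1, 3, 7, 14 and 28. Both were lowest at day 1 and highest at day 3, with log2 ratios between -0.54 and 0.43 for Pdgfrb and between -0.42 and 0.46 for Rgs5.

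Anpep, aminopeptidase N, found on pericytes and on myeloid cells, had 1.55 in sham, then 1.38, 2.84, 3.05, 2.67 and 1.14 on days 1, 3, 7, 14 and 28. It was higher than in sham at days 3, 7 and 14, with log2 ratios of 0.83, 0.93 and 0.75, none past 2-fold. Vtn, vitronectin, a matrix protein made by brain pericytes (chr11:78499091-78502324), had 26.5 in sham, then 20.97, 20.4, 28.4, 44.0 and 27.7 on days 1, 3, 7, 14 and 28, and day 14 stood apart, 0.73 above sham in log2 ratio. Abcc9, a potassium channel subunit of pericytes, was listed at days 1, 3 and 7 only, at 0.379, 1.13 and 0.896 FPKM, and its day 3 level was above both its summed starts (0.260) and its summed ends (0.735).

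The 3 smooth muscle genes differed in the days on which they stood high. Tagln, transgelin, an early marker of smooth muscle that fibroblasts and myofibroblasts also make (ENSMUSG00000032085, chr9:45929619-45936058), had an FPKM of 2.07 in sham, then 6.48, 6.46, 3.71, 3.65 and 3.70 on days 1, 3, 7, 14 and 28. Acta2, smooth muscle actin, also of myofibroblasts (chr19:34241090-34255590), had 3.95 in sham, then 3.87, 7.61, 7.94, 7.04 and 5.25 on days 1, 3, 7, 14 and 28. Tagln was 3.03-fold and 3.02-fold higher at days 1 and 3, while Acta2 was at its sham level at day 1 and nearly 2-fold higher from day 3 to day 14, with log2 ratios of 0.93, 0.99 and 0.82. Myh11, the heavy chain of mature smooth muscle, had 0.418 in sham, then 0.731, 0.446, 0.615 and 1.10 on days 3, 7, 14 and 28 (none listed on day 1), past 2-fold only at day 28. Its level in sham was that of its start and its level at day 28 that of its end, and by starts it was 0.418 in sham and 0.738 at day 28, less than 2-fold apart.

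Genes with related roles were read from 5 further lists of 79 genes. The genes higher from day 1 to day 28 are given beside the number compared, where all genes gave 5.11%, 8.54%, 8.53%, 8.97% and 3.68%. They were 1 of 12, 2 of 12, 2 of 13, 2 of 13 and 1 of 12 in the Wnt list, 0 of 19, 5 of 20, 1 of 19, 3 of 19 and 0 of 19 among further junctions and transporters, and 0 of 10, 1 of 13, 0 of 10, 1 of 12 and 0 of 12 among VEGF, Notch and tip cell genes. They were 1 of 3, 2 of 5, 1 of 4, 0 of 4 and 1 of 4 among endothelial transcription factors and 0 of 8, 1 of 8, 0 of 7, 0 of 8 and 0 of 7 among mural genes. The genes lower, where all genes gave 4.48%, 2.53%, 2.12%, 6.92% and 2.79%, numbered 0, 0, 0, 1 and 0 in the Wnt list, 1, 1, 1, 0 and 1 among further junctions and transporters, 1, 1, 0, 1 and 0 among VEGF, Notch and tip cell genes, 0, 0, 0, 0 and 0 among transcription factors and 0, 0, 0, 0 and 3 among mural genes, of the same numbers compared. Some of these counts rest on a gene not being listed: Fzd4 at day 14 (Wnt list, lower), Sox17 in sham (Wnt list, higher at day 7), Notch1 on days 1 and 14 (Notch list, lower) and Kcnj8 at day 28 (mural list, lower). Among the genes counted as higher, Lef1, Pgf, Notch4, Fli1, Foxf2 and Notch3 lay below 1 FPKM in sham. They were compared only through the library in which they were high. In lists this short, a count of 1 says little beside the share of all genes. Single genes of these lists are given by their log2 ratio to sham. The list of the Wnt pathway that induces the barrier had a median log2 ratio of 0.37 at day 3, with 2 of 12 genes compared higher and 0 lower. Lrp5, the Wnt co-receptor, was higher at days 3, 7 and 14, at 1.29, 1.21 and 1.01, and Tspan12, which helps Norrin signal through it, was at 1.02 on day 3. Lef1, a transcription factor of the pathway, was at 1.22 on day 14, and Ctnnb1, beta-catenin, which most cells express, was at 1.22 on day 1 and 1.13 on day 28.

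The list of further junctions and transporters had 5 of 20 genes higher and 1 lower at day 3, with a median of 0.53. Ly6c1, a surface protein of endothelial cells and monocytes, had 11.6 in sham, then 18.9, 29.4, 20.04, 37.3 and 22.9 on days 1, 3, 7, 14 and 28, and its log2 ratio reached 1.68 at day 14. Abcg2, an efflux pump of the barrier, had 7.72 in sham, then 2.86, 5.48, 3.51, 7.37 and 5.15 on days 1, 3, 7, 14 and 28, lowest at day 1 as the transporter Slco1a4 was. Slc38a5, a glutamine transporter, was lowest at day 28 (-1.74), and Cgn, cingulin of tight junctions, at day 3 (-1.39).

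Of the further VEGF, Notch and tip cell genes, 1 of 13 compared was higher and 1 was lower at day 3. Pgf, a ligand of Flt1, was at 1.08 and Hey1, a Notch target also made by neural cells, at -1.31 on day 3. At day 14 Notch4, the endothelial Notch receptor, was at 1.01. Vegfc, the lymphatic growth factor, was at -1.17 on day 14, but it lay below 1 FPKM in both libraries and is not in the count.

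Among the endothelial transcription factors, 2 of 5 compared were higher at day 3. Fli1, an ETS factor that leukocytes also make, had 0.432 in sham, then 0.534, 2.28, 2.00 and 1.03 on days 1, 3, 7 and 28 (none listed on day 14), and its log2 ratio was 2.16 on day 3, where Foxf2, a factor of brain pericytes and endothelium, was at 1.11. Klf4, which responds to flow and injury, was highest at day 1 (1.16), and Ets1 was at 0.96 on day 3.

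The further mural genes were higher in 1 of 8 at day 3 (Notch3, at 1.16) and lower in 3 of 7 at day 28, beside 2.79% of all genes, with a median of -0.78 at day 28. The 3 were Kcnj8, which was not listed at day 28, and Higd1b and Ndufa4l2, which mark pericytes and were at -1.12 and -1.24. Myl9, a contractile light chain, had its largest ratio at day 14, 0.88. Of the pericyte members, Pdgfrb, Rgs5 and Anpep were below sham at day 28, with -0.27, -0.23 and -0.41, and Vtn was above it, with 0.06.

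Other cell types moved in the same libraries. The 5 markers of perivascular fibroblasts, all listed in each library, summed to an FPKM of 24.9 in sham, then 28.3, 84.9, 105, 93.1 and 25.3 on days 1, 3, 7, 14 and 28, with Dcn the most abundant except at day 7, when Col1a2 was. All 5 were past 2-fold at days 3 and 14. Astrocyte markers (7 of 7 listed) summed to an FPKM of 610.0 in sham, then 776, 1351, 1006, 836 and 644 on days 1, 3, 7, 14 and 28, with Gfap the most abundant from day 1 to day 14. Gfap alone went from 85.8 in sham to 329.9 at day 1 and 698 at day 3, whereas 2, 7, 6 and 3 of the 7 astrocyte markers were above sham on days 1, 3, 7 and 14, with median log2 ratios of -0.06, 0.38, 0.15 and -0.10. Neuron markers (6 of 6 listed) summed to an FPKM of 1755 in sham, then 1754, 1275, 1532, 1366 and 1716 on days 1, 3, 7, 14 and 28, with Snap25 on top, and oligodendrocyte markers (3 of 4 listed, without Mobp) to an FPKM of 1512 in sham, then 1956, 1499, 1751, 1723 and 1364 on days 1, 3, 7, 14 and 28, with Mbp on top. The members summed to an FPKM of 189.6 in sham, then 185, 244, 196, 213 and 192 on days 1, 3, 7, 14 and 28, and their sum was highest at day 3, when neuron markers summed to their least. The part of these cell types in the members' levels was not tested.

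Blood cell markers differed between libraries as well. Of 3 blood cell markers 2 were listed, Hba-a1 in no library, and the list summed to an FPKM of 117 in sham, then 98.4, 212, 62.4, 193 and 79.9 on days 1, 3, 7, 14 and 28, nearly all of it the hemoglobin gene Hbb-bs. Hbb-bs was thus above sham at days 3 and 14, the same libraries in which Eng, Nos3, Vwf, Emcn and Icam2 had their highest levels, and below it at days 1, 7 and 28. These genes were named after their values were seen. Tjp1, Ocln, Rgs5, Tie1, Slco1a4 and Slco1c1 were also highest at day 3 but lay below sham at day 14. Their log2 ratios there were between -0.52 (Tjp1) and -0.05 (Slco1a4). Whether the amount of vessel or blood in the dissected tissue differed between the pools was not tested.

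**Figure D5:**
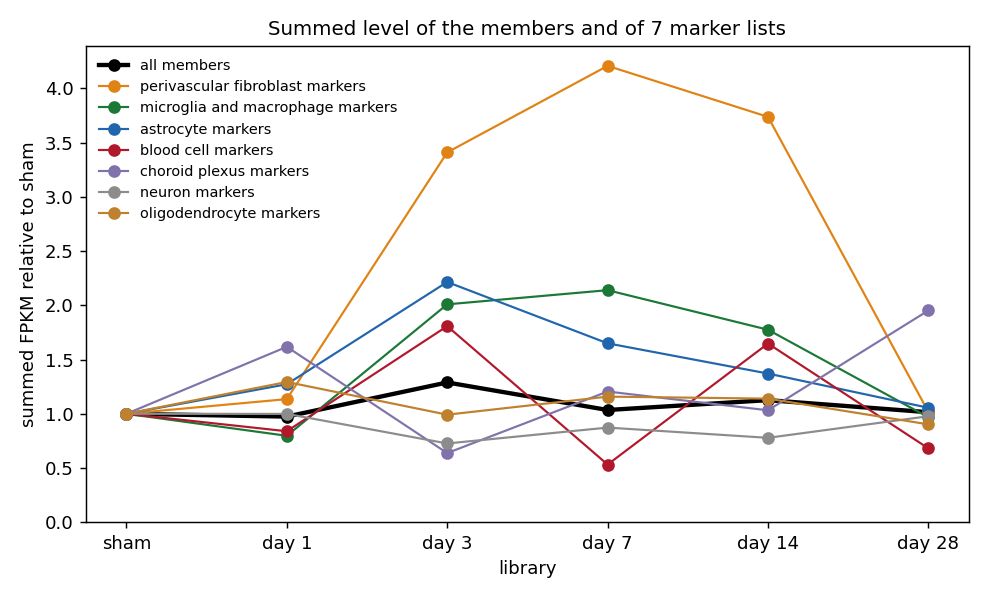
Summed FPKM of all members (black) and of 7 marker lists (colours) in each library, relative to sham (vertical axis, from 0). The members' sum went from 189.6 in sham to 244 FPKM at day 3, while that of the perivascular fibroblast markers went from 24.9 to 105 at day 7, and blood cell markers were high at days 3 and 14.

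The libraries also differed in which part of a transcript was listed, most of all at day 14. Across all genes with a start or an end, 5.24% had an end and no start in sham, then 7.24%, 5.05%, 5.18%, 11.5% and 5.59% on days 1, 3, 7, 14 and 28. For the members this was 1 of 32 genes in sham, 2 of 33 on day 1, 2 of 34 on day 3, 3 of 34 on day 7, 3 of 31 on day 28 and 6 of 31 on day 14, where Ocln, Angpt1, Kdr, Tek, Plvap and Myh11 had ends only. Longer transcripts had lower ratios at days 1 and 14: across genes, which are not independent replicates, Spearman's rho between log2 ratio and transcript length was -0.255 at day 1 and -0.404 at day 14, against 0.00831 at day 3. Read by their starts alone, 8 of 27 members were lower at day 14, beside 1911 of 11277 of all genes, where 1 was by the gene value. Read by their ends alone 0 of 28 were, beside 629 of 9417 of all genes. At day 3, 8 of 29 members were higher by starts, beside 1159 of 11533 of all genes, and 7 of 28 by ends, beside 979 of 9349.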

How the data were processed

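RNA from the ipsilateral cortex of mice was measured in 6 libraries, 1 per group, each pooled from 3 mice. Per the submitters' processing notes, reads were processed with Trimmomatic 0.30, HISAT2 2.0.1 and HTSeq 0.6.1 on mm10. The authors deposited FPKM for each transcript start, end and splicing event; the labels and processing notes do not state the tool behind these values. Depth per library is unknown, so no interval was computed. Gene values were the largest of summed starts, summed ends and any single event with the gene's identifier. Ratios to sham used a pseudocount of 0.1, a filter of 1 FPKM in either library and a log2 threshold of 1. Positions came from GENCODE M21. Tables were computed in Python 3.11.15 with pandas 2.3.3, arrays with numpy 2.4.6, ranks with scipy 1.17.1 and plots with matplotlib 3.10.9. The code was tested on simulated data. The members, 5 further lists and 7 marker lists were chosen with earlier results of these data known. All members are named, and in each further list up to 4 genes with the largest ratio in size on any day, among those that reached 1 FPKM in any library and were listed in both libraries; other genes named were chosen after their values were seen. Alternatives covered the pseudocount, filter, threshold, gene value, events used, scaling and transcript length.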

Additional observations from a re-analysis of the deposited data

Results flagged for a closer look

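Starts on the strand opposite to Vegfa were listed in libraries after stroke and in none of sham, day 1 and day 3. Their summed FPKM was 0.466 at day 7, 0.654 at day 14 and 0.393 at day 28. They were singled out because this signal lies outside the gene's own strand and was not listed in the control library. The values carry the identifier of Vegfa and are included in its summed starts.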

How the results depend on the processing

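No paired analysis was possible because each group holds 1 library, replicate 1, pooled from 3 mice. A value without a test was called moved at a shift of 0.2 log2 units or more, and a count when it left a range of 1.5 times. Of 177 alternative values of the counts and medians, 134 kept within these limits. Of 1377 alternative ratios of single genes, 1304 did, 73 moved and 0 changed sign past the threshold. With a pseudocount of 1, which draws low levels together, higher members numbered 2, 4, 1, 1 and 1 of 30, 31, 31, 30 and 30 on days 1, 3, 7, 14 and 28, with 1 lower on day 1 and 1 on day 14. Of all genes 376 of 11790, 622 of 12052, 659 of 12069, 691 of 12045 and 241 of 11751 were higher, and 298 and 625 lower on days 1 and 14. Of members' ratios, 8 of 21 single ratios past the threshold kept their side. Without a filter, 1 of 32 members was lower at day 28, beside 859 of 14010 of all genes. With a filter of 5 FPKM, which leaves fewer genes, 1 of 11, 3 of 15, 0 of 11, 0 of 13 and 1 of 13 were higher on those days, beside 241 of 7898, 336 of 8070, 361 of 8083, 429 of 8125 and 140 of 7897 of all genes, 1 was lower on day 1 and 0 on day 14, beside 150 and 306 of all genes, and the medians were 0.46, -0.13 and 0.13 on days 3, 7 and 14.

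By summed starts, 1 of 27 members was higher and 8 were lower at day 14, beside 945 and 1911 of 11277 of all genes, 0 of 26 were higher and 1 was lower at day 28, beside 528 and 517 of 11195, and the day 14 median was 0.13. By summed ends, 1 of 28 was higher and 1 lower at day 7, beside 984 and 313 of 9375, and 0 of 28 were lower at day 14, beside 629 of 9417. With events inside the annotated span, 2 of 30 were lower at day 14, beside 820 of 11767, with Vegfa now among them as its starts on the opposite strand drop out. With scaling to the median ratio, 1 of 30 was higher and 2 were lower at day 14, beside 910 and 946 of 11968. With a listing required in sham and in the day's library, 0 of 29 were lower on day 14, beside 538 of 11557, as Flt1 drops out. With a threshold of 1.5-fold, 5 were lower at day 1, 16 higher at day 3, 6 higher and 1 lower at day 7, 10 higher and 2 lower at day 14, and 4 higher and 2 lower at day 28, of the numbers compared with a pseudocount of 1. Of all genes 1320 were then lower at day 1, 1920 higher at day 3, 1847 higher and 730 lower at day 7, 2225 and 1612 at day 14, and 1049 and 813 at day 28. With a log2 threshold of 2, 1 was higher and 1 lower at day 1, 1 higher at day 3, 0 higher at days 7, 14 and 28, and 1 lower at day 14, beside 210 and 187 of all genes at day 1, 359, 418, 363 and 142 higher on the later days and 450 lower at day 14. The higher ones were Cldn5 at day 1 and Abcc9 at day 3, not listed in sham, and the lower one at day 14 was Flt1, not listed there. Where no construction is named, the cause was not tested.

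The number of members highest at day 3, 17 of 29, was 12 of 22 by starts, 15 of 28 by ends and 18 of 29 with scaling to the median ratio, alternatives added after seeing the data. The share of all genes highest at day 3 was not computed under these alternatives, so these counts cannot be compared with all genes. Unknown depth limits each value, and genes near 1 FPKM cross the filter and the listing easily.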
